A study of Mus musculus with 82 samples.

Results

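The 10 genes described here are imprinted genes linked to growth: H19, Igf2, Dlk1, Meg3, Rian, Mirg, Ndn, Grb10, Peg3 and Plagl1. They were taken by symbol as rows of the deposited gene count files, where all 10 were found among 55376 genes. Hematopoietic stem cells (HSCs, sorted as LSK CD34-Flk2-CD150+) came from the bone marrow of young and old male C57BL/6J mice, with 4 young RNA libraries made from pooled mice and 8 old RNA libraries made from single mice. Old HSCs were also infected with lentivirus carrying a control shRNA or 1 of 2 shRNAs (shRNA1, shRNA2) against a short Btaf1 transcript variant. These cells were sequenced after culture (2 libraries per construct) or after growth in irradiated young female CD45.1 recipients, from which GFP+ CD45.2+ HSCs were sorted (2 libraries per construct, each from pooled recipients). The gate for these recovered HSCs was LSK CD48-CD150+, which is not the gate used for HSCs from the marrow of donors. Young common myeloid progenitors (CMP), granulocyte-macrophage progenitors (GMP) and megakaryocyte-erythroid progenitors (MEP) gave 2 RNA libraries each. All donors were wild type, and the transplanted cells had been through sorting, infection and culture, so they are not a sample of resident old HSCs. ATAC-seq, which measures chromatin accessibility, covered 4 young and 4 old libraries, and H3K27ac, a histone mark of active enhancers and promoters, 2 young and 2 old.

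An imprinted gene is read mainly from the copy inherited from one parent, because DNA methylation laid down in the egg or the sperm marks one of the copies. Imprinted genes lie in clusters that share a control region, and many of them tune growth before birth: Igf2 is a growth factor, Grb10 an adaptor that dampens insulin and IGF receptor signaling, Plagl1 a zinc finger transcription factor, and Dlk1 a membrane protein related to the Notch ligands. In adult bone marrow several of them are known to be highest in the long-term HSC compartment. None of the libraries was made from a cross between strains, so which parental copy was read was not measured.

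The genes fall into 6 chromosomal neighborhoods in the mm10 build, with ends from the GENCODE annotation. H19 (ENSMUSG00000000031.16, chr7:142575529-142578143, minus strand), a long noncoding RNA, and Igf2 (ENSMUSG00000048583.16, chr7:142650766-142666816, minus strand) share one cluster. The Dlk1-Dio3 cluster holds Dlk1 (ENSMUSG00000040856.17, chr12:109452823-109463336) and the noncoding genes Meg3 (ENSMUSG00000021268.17, chr12:109541001-109571726), Rian (ENSMUSG00000097451.10, chr12:109603940-109661716) and Mirg (ENSMUSG00000097391.8, chr12:109729764-109749460), all on the plus strand. The others stand apart from one another: Ndn (ENSMUSG00000033585.5, chr7:62346569-62350262, plus), Peg3 (ENSMUSG00000002265.16, chr7:6703892-6730431, minus), Grb10 (ENSMUSG00000020176.17, chr11:11930508-12038683, minus) and Plagl1 (ENSMUSG00000019817.18, chr10:13060504-13131694, plus).

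Some of the noncoding members are also hosts of microRNAs, short RNAs that pair with target messages mainly through their seed (bases 2 to 8). RefSeq places 39 mature miRNAs of 21 miRNA genes inside the members: 2 in H19, 2 in Igf2, 3 in Meg3, 6 in Rian and 26 in Mirg. They hold 38 distinct seeds, and the one shared seed, GGUUGCC, joins a pair of miRNAs inside Mirg. The sequences below are the miRNAs of H19 (chr7:142577112-142577133 and chr7:142577078-142577099) and Igf2 (chr7:142654968-142654989 and chr7:142654932-142654952), the host genes that were lower in old HSCs, and the Mirg pair with the shared seed (chr12:109735669-109735692 and chr12:109739132-109739152), with the seed in capitals.
mmu-miR-675-5p: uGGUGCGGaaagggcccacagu
mmu-miR-675-3p: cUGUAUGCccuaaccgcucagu
mmu-miR-483-5p: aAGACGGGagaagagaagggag
mmu-miR-483-3p: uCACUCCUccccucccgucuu
mmu-miR-453: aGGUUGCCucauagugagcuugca
mmu-miR-496a-5p: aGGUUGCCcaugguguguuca
These libraries were made from long RNA and do not measure mature miRNAs: of 51 miRNA gene rows in the Dlk1-Dio3 cluster, 39 held any count, the highest was 6 in one library, and none passed the filter on low counts in the comparison of young and old HSCs.

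The upstream side of H19 is the known imprinting control region of its cluster, where the insulator protein CTCF binds. The CTCF core motif of 14 letters, those in capitals below with any base allowed at positions 6 and 9, was searched on both strands of all 127692 accessible regions and was found in 37 of them (0.029%). Of 53 regions within 10 kb of a member, 2 held it, both upstream of H19, at chr7:142580309-142580322, chr7:142580764-142580777 and chr7:142582034-142582047 on the minus strand. They are shown because the accessibility of these regions was measured in young and old HSCs, with GRCm38.p6 as the source.
H19 upstream match 1: agacgatgCCGCGTGGTGGCAGtacaatac
H19 upstream match 2: ggatgctaCCGCGCGGTGGCAGcatactcc
H19 upstream match 3: gggagttgCCGCGTGGTGGCAGcaaaatcg
A second search, for TATAAA on either strand in the RefSeq promoters (250 bases before to 50 after a start), found it in 1 of 14 promoters of 9 members and in 13.6% of 32851 promoters overall. The match lies in the Meg3 promoter (chr12:109540746-109541045), where the first letter stands at -25 from the start and the match on the other strand overlaps it.
Meg3 promoter: tctgcgcctttaTATAAAccccac

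Across the 30 RNA libraries the total count ranged from 20475764 to 24654742 in young and old HSCs and from 33177394 to 42737054 in the other 18, and levels are given as CPM, the count scaled to a common library total. Of genes with 1 to 20 counts, 39.6% to 44.3% had an even count in young and old HSC libraries against 71.2% to 76.2% in the other 18. The sources give different library kits for some of these sets and do not settle the kit for all of them, so differences across the sets cannot be told apart from the way the libraries were made. Counting intervals are 95% exact and, like the limits from a count of 0, cover counting error only. They are too narrow in the 18 libraries if each read of a pair was counted. The summed level of 12 HSC marker genes was 5690 to 6490 CPM in young and old HSCs, 2860 to 3000 CPM after culture, 4170 to 4840 CPM after transplantation and 552 to 1260 CPM in the progenitors. Granulocyte and monocyte markers reached 58100 to 59400 CPM in GMP and erythroid and megakaryocyte markers 7310 to 7680 CPM in MEP. Of these 11 markers, 8 were higher and 3 lower in MEP than in CMP. Among the lower were Pf4 and Itga2b, both known from megakaryocytes (log2 fold change -7.29 and -7.05), so these markers do not bear out the megakaryocyte part of the MEP label. The shRNA target could not be checked directly, since the Btaf1 row holds both transcript variants: it was at 137 and 141 CPM in cultured control HSCs and 110 to 119 CPM with the shRNAs (log2 fold change -0.31, edgeR adjusted p = 0.00151).

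**Figure D1:**
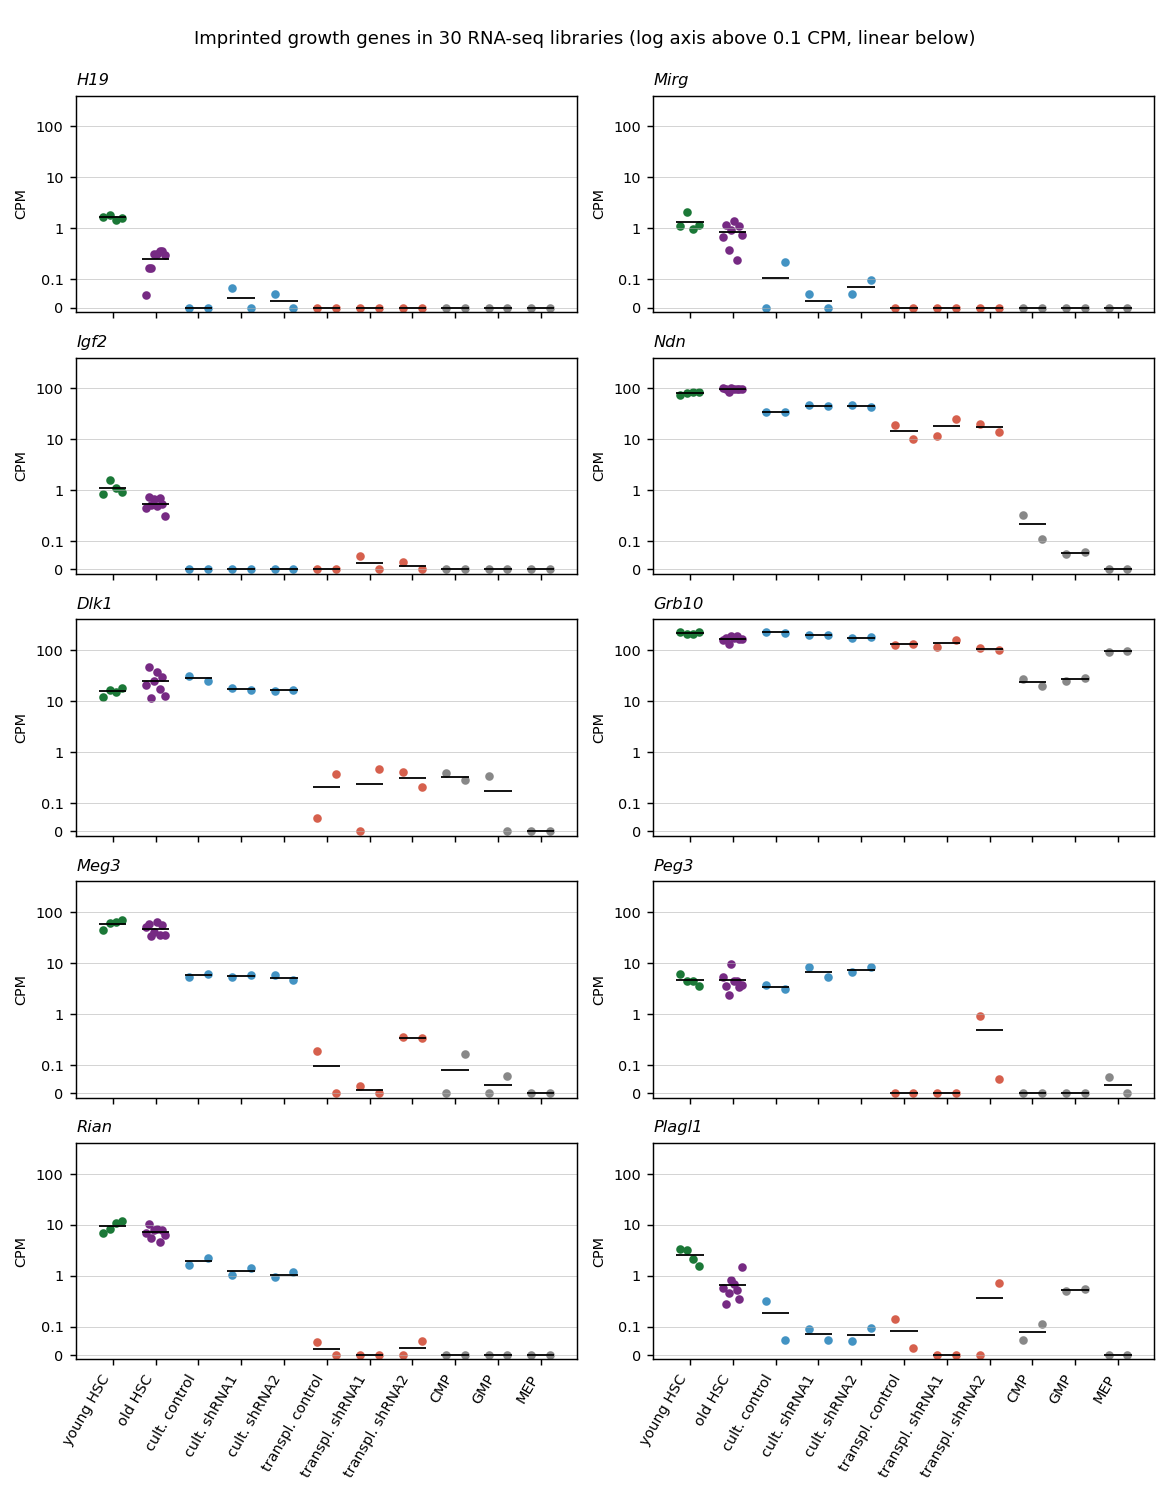
Level in CPM of each of the 10 genes in every RNA library (log axis above 0.1 CPM, linear below), 1 panel per gene, 1 point per library and a bar at the mean of each group: young HSC, old HSC, cultured and transplanted shRNA libraries, CMP, GMP and MEP. Most members were lower in the transplanted and progenitor libraries than in fresh HSCs. These differences cannot be told apart from the way the libraries were made. Grb10 ranged from 19.8 to 232 CPM, with a mean of 218 CPM in young HSC, 23.5 CPM in CMP and 26.9 CPM in GMP.

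Per kilobase of exon, the young HSC levels spanned from Grb10 and Ndn at the top to Mirg at the bottom. Grb10 had 24.0 ± 1.25 CPM per kb (SD, n = 4) and Ndn, a MAGE family protein that restrains cell division, 22 ± 1.18 CPM per kb, and the ranges of these neighbors overlapped. Meg3 followed with 3.30 ± 0.608 CPM per kb and Dlk1 with 2.74 ± 0.448 CPM per kb, again with overlapping ranges. H19 stood at 0.664 ± 0.0713 CPM per kb and Rian at 0.520 ± 0.129 CPM per kb, which overlapped as well. Peg3 (0.346 ± 0.0763), Plagl1 (0.331 ± 0.113), Igf2 (0.193 ± 0.0570) and Mirg (0.182 ± 0.0672 CPM per kb) closed the order, and within the pairs of Peg3 with Plagl1 and Igf2 with Mirg the difference of the means was smaller than either SD. In old HSCs the order changed: Ndn was first at 25.9 ± 1.57 CPM per kb (n = 8), then came Grb10 at 18.5 ± 1.98 and Dlk1 at 4.44 ± 2.22, ahead of Meg3 at 2.59 ± 0.649. Mirg (0.114 ± 0.0550), H19 (0.103 ± 0.0467), Igf2 (0.0957 ± 0.0252) and Plagl1 (0.0841 ± 0.0487 CPM per kb) ended it, with means closer to each other than their SDs.

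The comparison of old with young HSCs asked how these genes change with age. H19, Plagl1 and Igf2 were lower in old HSCs, none of the 10 was called higher, and the Dlk1-Dio3 genes varied widely among single old mice without a shift that passed the test. A gene was called where the fold change exceeded 1.5 and the edgeR quasi-likelihood p, adjusted by Benjamini-Hochberg over all 21522 genes tested, was below 0.05. All 10 members were tested and 3 were called, all lower in old HSCs, where 7.52% of all genes tested were called and 2.83% were called lower. The filter on low counts fixed the direction for H19, which leaves 2 calls, Plagl1 and Igf2. The median log2 fold change of the members was -0.34 and that of all genes tested -0.01. In bulk RNA such as this, fewer cells of a type and less RNA per cell cannot be told apart. The p-values measure only the spread between these libraries.

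H19, the noncoding RNA that is expressed from the maternal copy and restrains growth, had the largest difference of the members. Its level was 1.63, 1.86, 1.43 and 1.62 CPM in the 4 young libraries (31 to 39 counts) and ran from 0.0442 through a median of 0.308 to 0.365 CPM in the 8 old libraries (1 to 9 counts). The lowest young library was thus well above the highest old one. The log2 fold change was -2.62 (SE 0.35, edgeR adjusted p = 3.62e-06). H19 passed the filter on low counts only through the young libraries, where it is high, so its call with the filter had to be for lower in old HSCs. With no filter the adjusted p was 1.76e-10. Its neighbor Igf2 had 0.837, 1.56, 1.10 and 0.912 CPM in young HSCs (20 to 32 counts) and 0.306, 0.524 and 0.737 CPM as the lowest, median and highest of the old libraries (7 to 18 counts). These groups did not overlap either, and the log2 fold change was -0.95 (SE 0.31, edgeR adjusted p = 0.0300). The Igf2 call rested on few counts: it was lost without young replicate 2 (log2 fold change -0.76, edgeR adjusted p = 0.149) and without young replicate 3 (-0.95, adjusted p = 0.0745). It was also lost with no filter on low counts (adjusted p = 0.104) and with the replicate block (adjusted p = 0.182), and 12 of 16 alternatives kept it. A same-strand gene model, Gm49394, and the antisense gene Igf2os overlap Igf2, so its reads may have been split or shared.

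Plagl1, a transcription factor known to act on H19, Igf2 and other members of an imprinted gene network, was lower as well. The young libraries had 3.43, 3.22, 2.12 and 1.58 CPM and the old ones 0.287 (lowest), 0.551 (median) and 1.49 CPM (highest). The groups nearly met, since old replicate 8 at 1.49 CPM stood just under young replicate 4, but did not overlap. The log2 fold change was -1.93 (SE 0.32, edgeR adjusted p = 7.06e-05), and the call held in 16 of 16 alternatives.

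Grb10 and Ndn, the most abundant members, moved by less than the fold required for a call, in opposite directions. Grb10 had 225, 212, 205 and 229 CPM in young HSCs and 133, 167 and 192 CPM as the lowest, median and highest in old HSCs, with no overlap (log2 fold change -0.34, edgeR adjusted p = 0.00294). Ndn had 75.0, 81.3, 84.9 and 83.3 CPM in young HSCs and 82.8, 96.1 and 102 CPM in old HSCs (log2 fold change 0.28, edgeR adjusted p = 0.000169). Only old replicate 3, at 82.8 CPM, fell within the young range for Ndn. Peg3, a zinc finger protein expressed from the paternal copy, had 6.03, 4.35, 4.47 and 3.61 CPM in young HSCs and 2.37, 4.12 and 9.43 CPM in old HSCs. The young values lay inside the old range, and the log2 fold change was 0.03 (edgeR adjusted p = 0.970), a sign that turned negative when some single libraries were left out.

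In the Dlk1-Dio3 cluster, Dlk1 is expressed from the paternal copy and Meg3, Rian and Mirg from the maternal copy. Dlk1 had 12.2, 16.9, 14.9 and 17.9 CPM in young HSCs and 11.4 (lowest), 22.6 (median) and 47.6 CPM (highest) in old HSCs, so that the old range contained the young one (log2 fold change 0.74, edgeR adjusted p = 0.247). The spread of Dlk1 was 15.5 ± 2.54 CPM (SD, n = 4) in young libraries from pooled mice and 25.1 ± 12.6 CPM (n = 8) in old libraries from single mice. Pooling and age cannot be told apart as sources of that difference in spread. Meg3 had 44.0, 61.2, 64.0 and 69.5 CPM in the young libraries and 34.2, 45.3 and 63.0 CPM in the old ones (log2 fold change -0.31, adjusted p = 0.361). For Rian the values were 6.86, 8.25, 10.9 and 12 CPM against 4.70, 7.48 and 10.4 CPM (log2 fold change -0.35, adjusted p = 0.221). For Mirg they were 1.13, 2.05, 0.967 and 1.16 CPM against 0.243, 0.841 and 1.42 CPM (log2 fold change -0.63, adjusted p = 0.249). Each of the 4 genes overlapped between ages. An antisense gene model, Gm26906, lies inside Meg3, and 19 same-strand small RNA genes lie inside Rian, so their reads cannot be fully separated.

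Among the 8 old mice the genes of the Dlk1-Dio3 cluster went up and down together, a pattern picked out after the values were seen. Old replicate 2 had 47.6 CPM of Dlk1, 59.0 of Meg3, 10.4 of Rian and 1.15 of Mirg, and replicate 5 had 37.6, 63.0, 8.19 and 1.42 CPM. At the low end, replicate 3 had 11.4, 34.2, 5.50 and 0.381 CPM and replicate 8 had 12.8, 35.8, 6.25 and 0.744 CPM in the same order. On log2 CPM over the 8 libraries, Dlk1 and Meg3 gave Pearson's r = 0.89 (exact permutation p = 0.00439, adjusted over 7 pairs 0.0154) and Spearman's rho = 0.95 (exact permutation p = 0.00114, adjusted 0.00781). Without the 2 libraries farthest from the median of Dlk1, r was 0.86. Rian and Mirg gave r = 0.91 (exact permutation p = 0.00136, adjusted 0.00955) and rho = 0.93 (exact permutation p = 0.00223, adjusted 0.00781), with r = 0.91 without the 2 farthest libraries.

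The other pairs of that cluster were also correlated over the 8 old libraries. Dlk1 with Rian had r = 0.86 (exact permutation p = 0.00744, adjusted 0.0174), rho = 0.90 (exact permutation p = 0.00456, adjusted 0.0106) and r = 0.72 without the 2 farthest libraries. Dlk1 with Mirg had r = 0.74 (exact permutation p = 0.0345, adjusted 0.0402), rho = 0.86 (exact permutation p = 0.0107, adjusted 0.0179) and r = 0.66 without the 2 farthest libraries. Meg3 had r = 0.79 with Rian (exact permutation p = 0.0211, adjusted 0.0295; rho = 0.83, exact permutation p = 0.0154, adjusted 0.0179). With Mirg it had r = 0.78 (exact permutation p = 0.0193, adjusted 0.0295; rho = 0.83, exact permutation p = 0.0154, adjusted 0.0179). Without the 2 farthest libraries these were 0.76 and 0.65. H19 and Igf2, which share the other cluster, gave r = 0.15 (exact permutation p = 0.678, adjusted 0.678) and rho = 0.33 (exact permutation p = 0.428, adjusted 0.428), with 1 to 9 counts of H19 behind each value, and r = 0.18 without the 2 farthest libraries. These pairs were chosen after their values were seen, so their p-values do not measure how often chance alone gives such pairs. No background from other gene pairs was drawn, and the labels give no batch within the old libraries. Old replicate 3, the lowest for Dlk1 and Meg3, was also the lowest for Ndn (82.8 CPM), Grb10 (133 CPM) and Peg3 (2.37 CPM). For H19, Igf2 and Plagl1 another library was lowest.

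**Figure D2:**
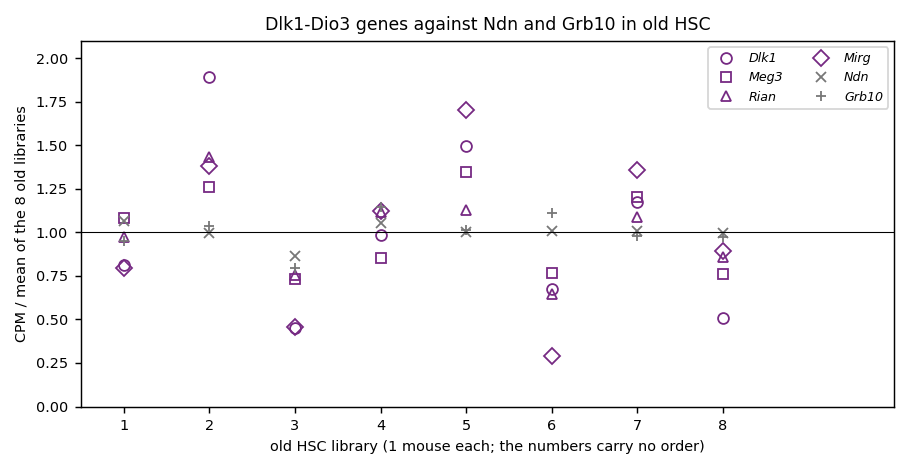
CPM of Dlk1, Meg3, Rian and Mirg (open symbols) and of Ndn and Grb10 (crosses) in each of the 8 old HSC libraries, each divided by the gene's mean over these libraries, with a line at 1. Old replicates 2, 5 and 7 sit high and replicates 3, 6 and 8 low for Dlk1, Meg3 and Mirg, while Ndn stays between 82.8 and 102 CPM.

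Other genes of the same pathways moved with age in both directions. Of 25 genes of IGF signaling and its RNA-binding regulators, 18 were tested, 4 fell and 1 rose, with a median log2 fold change of -0.28. For this list and those that follow, the share called over all genes was 7.52%. Igf1, the liver and stromal growth factor related to Igf2, fell from 19.7 ± 2.46 CPM (n = 4) to 4.96 ± 1.33 CPM (n = 8; log2 fold change -1.95, SE 0.15, edgeR adjusted p = 6.21e-09). Lin28b, which blocks the let-7 miRNAs in fetal HSCs, fell from 4.52 ± 0.910 to 1.08 ± 0.671 CPM (log2 fold change -2.03). Igf2bp2, which binds and stabilizes Igf2 and other messages, fell from 49.2 ± 2.83 to 12.5 ± 2.14 CPM (log2 fold change -1.93). Hmga2, a chromatin protein repressed by let-7, fell from 26.3 ± 1.08 to 14.6 ± 1.22 CPM (log2 fold change -0.81). Igf2r, the imprinted receptor that clears IGF2, was at 65.3 ± 2.33 and 60.3 ± 7.03 CPM.

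Of 35 other genes annotated to the same imprinted clusters, 25 were tested, 2 rose and 3 fell (median log2 fold change -0.01). Tnni2, a muscle troponin subunit, fell from 4.14 ± 0.756 to 1.43 ± 0.516 CPM (log2 fold change -1.49). Lsp1, a leukocyte actin-binding protein, fell from 180.0 ± 3.52 to 90.8 ± 9.81 CPM (log2 fold change -0.94). Phlda2, a growth-restraining gene near the H19 cluster, fell from 13.3 ± 2.72 to 7.37 ± 1.37 CPM (log2 fold change -0.81). Ascl2, a transcription factor of the neighboring Kcnq1 domain, rose from 0.464 ± 0.0716 to 0.940 ± 0.295 CPM (log2 fold change 1.05). Of 36 imprinted genes elsewhere, 32 were tested, 1 rose (Asb4, log2 fold change 1.23) and 1 fell (Slc22a3, an organic cation transporter, log2 fold change -0.69). Of 15 regulators of imprinted methylation, 14 were tested and Zfp57, which guards methylation at imprinted control regions, was called, rising from 8.08 to 10.7 CPM in young to 14.8 to 20.1 CPM in old HSCs (log2 fold change 0.84). Markers of other cells moved with age too: the summed level of 10 lymphoid markers was 79.4 to 134 CPM in young and 38.0 to 45.0 CPM in old HSCs, with 5 of 9 tested markers lower and none at 0 in every library of a group. The sum of 11 granulocyte and monocyte markers was 243 to 382 CPM against 479 to 629 CPM, with 2 of 8 tested higher and 1 lower. The stromal and endothelial sum was 91.0 to 102 CPM in young HSCs and 95.3 to 128 CPM in old HSCs, with Bglap at 0 in the young libraries. The part of these cells in the results for H19, Igf2 and Plagl1 was not tested.

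Chromatin accessibility near the members was compared next. The clearest differences were losses upstream of Dlk1 and downstream of Peg3, and the promoters of Grb10 and Peg3 were about equally open at both ages. Of 53 accessible regions within 10 kb of a member, 32 passed the CPM minimum and 6 were called (fold above 1.5, edgeR adjusted p below 0.01): 5 were less and 1 more accessible in old HSCs, where 13.0% of all 89245 regions tested were called and 2.90% were called lower. At 1 of the 5, in Plagl1, the CPM minimum fixed the direction, which leaves 4. Total counts were 15427933 to 26260337 per ATAC library.

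The region upstream of Dlk1 (chr12:109446020-109446721, outside any annotated gene, centre at -6452 bp from the Dlk1 start) had 12.2, 13.4, 11.9 and 12.9 CPM in the 4 young libraries and 7.34, 8.22, 7.12 and 6.06 CPM in the 4 old ones. Every young library was above every old one (log2 fold change -0.82, SE 0.11, edgeR adjusted p = 1.36e-08; called in 11 of 11 alternatives). A region inside the Dlk1 gene (chr12:109459441-109459931) fell from 2.59 to 1.60 CPM (log2 fold change -0.71, adjusted p = 0.00771), a call kept in 5 of 11 alternatives. The region over the Dlk1 start (chr12:109452820-109453589) ranged from 4.99 to 7.20 CPM in young HSCs and from 3.94 to 5.16 CPM in old HSCs (log2 fold change -0.48, adjusted p = 0.00820, under the fold required). Dlk1 RNA over the same ages had a log2 fold change of 0.74 that did not pass the test, and the RNA and ATAC libraries came from different samples.

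The region downstream of Peg3 lies within Zim1, the neighboring imprinted gene, at chr7:6696197-6696905 (centre 33880 bp from the Peg3 start). It had 13.4, 15.1, 16.3 and 15 CPM in the young libraries and 7.99, 8.53, 5.73 and 8.25 CPM in the old ones, with no overlap (log2 fold change -0.99, SE 0.11, edgeR adjusted p = 8.47e-11; called in 11 of 11 alternatives). The region over the first part of Peg3 itself (chr7:6727410-6729804) was at 83.5 ± 3.41 CPM in young HSCs and 77.6 ± 6.94 CPM in old HSCs (SD, n = 4 each; log2 fold change -0.12, adjusted p = 0.0558).

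Upstream of H19 lie the 2 regions that carry the CTCF core. The region with matches 1 and 2 (chr7:142580229-142580872, centre at -2408 bp from the H19 start) had 3.05, 3.18, 3.84 and 3.01 CPM in the young libraries and 2.05, 2.62, 1.95 and 2.03 CPM in the old ones (log2 fold change -0.61, SE 0.19, edgeR adjusted p = 0.00991). Its call stood just inside the threshold and was kept in 3 of 11 alternatives. The region with match 3 (chr7:142581683-142582153, centre at -3775 bp) had 2.45, 2.98, 2.53 and 2.55 CPM against 2.25, 1.54, 1.95 and 1.41 CPM (log2 fold change -0.57, adjusted p = 0.0306) and was not called. In Plagl1, one region near the 5′ end of the gene (chr10:13062231-13062684) went from 1.56 to 2.81 CPM in young libraries down to 0.948 to 1.45 CPM in old ones (log2 fold change -0.90, adjusted p = 0.00334; called in 5 of 11 alternatives). One further in (chr10:13076852-13077374) went from 1.37 to 2.20 CPM up to 2.62 to 3.58 CPM (log2 fold change 0.76, adjusted p = 0.00325; called in 8 of 11). These calls are bound to the CPM minimum. No old library passed it at the first region, and at the second it was passed by all 4 old and by 2 young libraries. At the region inside Dlk1 it was passed by all 4 young and by 3 old libraries. Grb10, the largest gene of the set, held 11 tested regions and none was called, although chr11:11959993-11961508 had a log2 fold change of -0.53 (adjusted p = 0.00191).

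**Figure D3:**
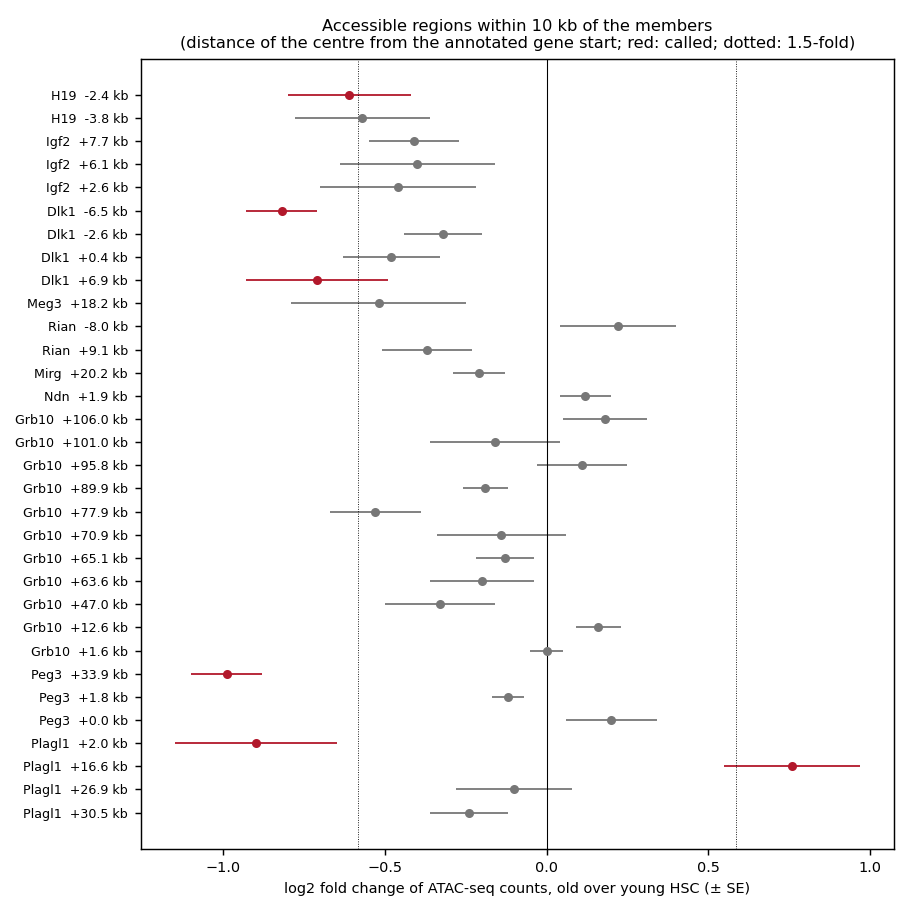
Log2 fold change of ATAC-seq counts, old over young HSCs (n = 4 each), with its SE for each of the 32 tested regions, named by the member and the distance of the region's centre from its annotated start. The 6 called regions are red and dotted lines mark a fold of 1.5. Of the 32 estimates 24 are below 0, with the Peg3 downstream region lowest at -0.99.

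Histone marks placed active and silencing marks over the same genes. The authors annotated 11 H3K27ac peaks to 6 members. With 2 libraries per age and no test, a peak was called where the old to young ratio of the mean signal (scaled to 10 M reads) passed 1.5 in either direction and each old library differed from each young library by at least 1.2 times in that direction. On this rule 3 member peaks were called, where 11.4% of 39557 peaks were. The peak over the Dlk1 start (chr12:109452907-109453868) had 1.93 and 0.970 in young and 0.743 and 0.692 in old HSCs (ratio 0.495). A peak inside Grb10 (chr11:11960016-11960704), which overlaps the ATAC region at 11959993, had 1.75 and 1.37 against 0.955 and 0.905 (ratio 0.597). Another inside Grb10 (chr11:12025972-12026758) had 0.940 and 0.271 against 1.42 and 1.22 (ratio 2.18). At the Dlk1 peak and the second Grb10 peak the gap between the 2 young libraries was close to or above the difference of the group means. Without young replicate 1 the Dlk1 peak (ratio 0.74) and the first Grb10 peak (ratio 0.679) were no longer called, and a Peg3 peak was (ratio 1.51). Without young replicate 2 the second Grb10 peak was not called (ratio 1.4) and a Plagl1 peak was (ratio 0.556). The limma fit called none of the 3 (lowest adjusted p among the members 0.0994, with 3 below 0.05 before adjustment). At the Grb10 promoter the signal was 2.83 and 2.24 in young and 2.08 and 2.29 in old HSCs.

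In young HSCs, H3K4me3, the mark of active or poised promoters, had 12 peaks on 8 members, with the highest mean signal at Igf2 (11.2), Grb10 (10.5), Plagl1 (9.42) and Peg3 (9.36). These signals were higher than in 64.9%, 63.3%, 61.1% and 60.9% of all H3K4me3 peaks, in that order. Ndn (8.40), Meg3 (6.14), Dlk1 (4.38) and H19 (3.41) followed. The further peaks were at Igf2 (6.17), Grb10 (3.43 and 2.05) and Dlk1 (2.05). The Polycomb mark H3K27me3 had 11 domains on 9 members. Its mean signal was higher over Dlk1 (0.989) than in 97.4% of all H3K27me3 peaks, over the widest Grb10 domain (0.927) than in 97.0% and over Ndn (0.745) than in 94.5%. The other Grb10 domains had 0.423 (63.6%) and 0.359 (41.3%). H19, Plagl1 and Rian lay below the middle of the distribution (41.7%, 35.0% and 30.6%). H3K36me3, laid down along transcribed genes, was deposited as 1 list of domains that names no age or library. These domains covered 100% of Meg3, 92% of Grb10, 77.4% of Mirg and 56.7% of Rian. They covered 7.54% of Peg3, 4.21% of Plagl1 and none of H19, Igf2, Dlk1 and Ndn. Of all annotated genes, 44.3% overlapped such a domain.

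**Figure D4:**
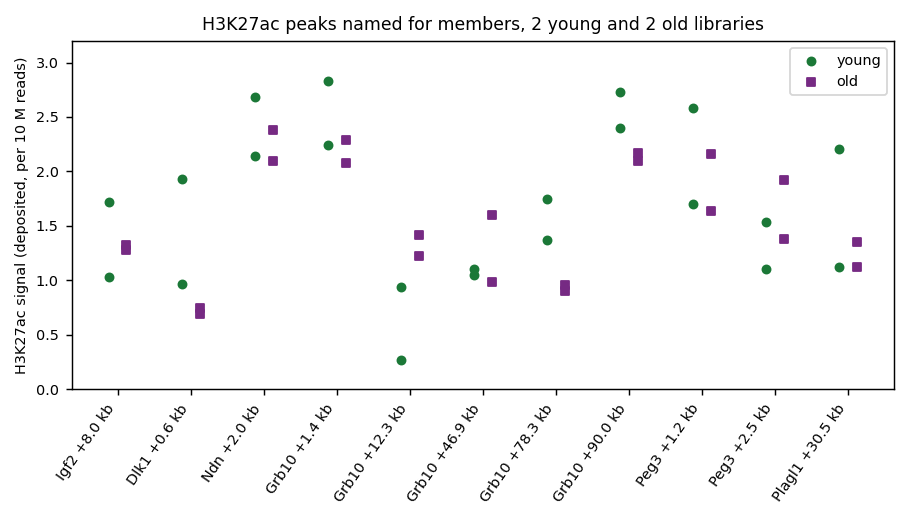
H3K27ac signal, scaled to 10 M reads, at the 11 peaks of 6 members, named by the distance of the peak's centre from the annotated gene start, with 1 circle for each of the 2 young and 1 square for each of the 2 old HSC libraries. The Dlk1 start peak falls from 1.93 and 0.970 to 0.743 and 0.692, and the young libraries lie apart from each other at several peaks.

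Knockdown of the short Btaf1 variant in cultured old HSCs was compared with the control shRNA, with both shRNAs together. Dlk1 fell and Peg3 rose, in every knockdown library against both controls, and the other 4 tested members were not called. Of the 10 members 6 passed the filter on low counts and 2 were called, where 0.906% of 19763 genes tested were called. H19, Igf2, Mirg and Plagl1 had too few counts to be tested in these libraries, with 0 to 4 counts in each knockdown library. The control libraries held 14 and 2 counts of Plagl1, 0 and 8 of Mirg and no count of H19 or Igf2.

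Dlk1 had 31.3 and 24.8 CPM in the control libraries, 17.9 and 16.7 CPM with shRNA1 and 15.9 and 16.7 CPM with shRNA2. The log2 fold change was -0.76 (SE 0.10, edgeR adjusted p = 0.000474), with -0.73 for shRNA1 and -0.79 for shRNA2 fitted alone. Without control replicate 1, which was the higher one, it was -0.58 (adjusted p = 0.0465), under the fold required. Peg3 had 3.74 and 3.16 CPM in the controls, 8.24 and 5.25 CPM with shRNA1 and 6.55 and 8.35 CPM with shRNA2 (log2 fold change 1.02, SE 0.20, edgeR adjusted p = 0.0112). Leaving out either control library ended the Peg3 call, while its log2 fold change stayed at 0.91 to 1.15 over all alternatives.

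Rian had 1.64 and 2.25 CPM in the controls and 0.947 to 1.43 CPM in the knockdown libraries (log2 fold change -0.77, adjusted p = 0.152). Meg3 had 5.43 and 6.06 CPM against 4.61 to 5.81 CPM (log2 fold change -0.12, adjusted p = 0.788). Ndn and Grb10 passed the adjusted p but not the fold. Ndn had 34.2 and 35.0 CPM against 43.4 to 47.2 CPM (log2 fold change 0.37, adjusted p = 0.00670). Grb10 had 232 and 221 CPM against 175 to 202 CPM (log2 fold change -0.29, adjusted p = 0.00696). Of the other imprinted genes, Cdkn1c, an inhibitor of cyclin-dependent kinases that keeps HSCs quiescent, fell from 20.5 ± 1.79 CPM to 13.7 ± 1.89 (shRNA1) and 13.9 ± 0.263 CPM (shRNA2; n = 2 each, log2 fold change -0.59), the one call among 23 tested genes of the same clusters. Zfp57 was the one call among 12 tested imprint regulators (log2 fold change -0.67) and Slc22a3 the one among 27 imprinted genes elsewhere (log2 fold change -0.60). None of 14 tested genes of IGF signaling was called (edgeR). Markers of other cells differed as well. The sum of 11 granulocyte and monocyte markers was 257 to 258 CPM in the controls, 313 to 314 CPM with shRNA1 and 356 to 365 CPM with shRNA2, with none of 4 tested called and S100a8 and S100a9 at 0 in each group. Of 8 tested erythroid and megakaryocyte markers 2 were lower, Tfrc (log2 fold change -0.74) and Hbb-bs (-0.61), and of 6 stromal and endothelial markers 1 was, Pdgfrb (-0.61). Their part in the Dlk1 and Peg3 results was not tested.

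**Figure D5:**
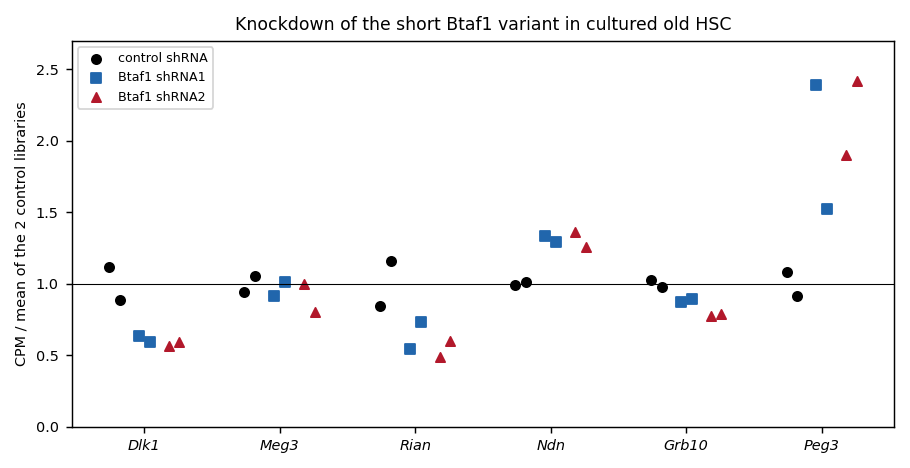
CPM of the 6 members tested in cultured old HSCs divided by the mean of the 2 control libraries, with 1 point per library for control shRNA, shRNA1 and shRNA2 and a line at 1. Dlk1 drops from 24.8 to 31.3 CPM in the controls to 15.9 to 17.9 CPM with the shRNAs, and Peg3 goes from 3.16 to 3.74 CPM up to 5.25 to 8.35 CPM.

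In HSCs recovered from recipients, most members were at or near 0 whatever the shRNA. Of the 10 members 4 were tested (Dlk1, Meg3, Ndn and Grb10) and none was called, where 0% of 20350 genes tested were called by edgeR, with 1138 below 0.05 before adjustment. Grb10 had 128 and 133 CPM in the controls and 102 to 158 CPM with the shRNAs (log2 fold change -0.12, SE 0.15, adjusted p = 0.961). Ndn had 18.7 and 10.2 CPM against 11.7 to 25.4 CPM (log2 fold change 0.29, SE 0.34, adjusted p = 0.961). Dlk1, at 2 and 14 counts in the controls, had 0, 18, 16 and 8 counts in the knockdown libraries. Such few and scattered counts cannot decide whether a change of the size seen in culture was present. The Btaf1 row was at 161 to 165 CPM in the controls and 118 to 139 CPM with the shRNAs (log2 fold change -0.37, edgeR adjusted p = 0.791). The difference between the knockdown effects after transplantation and in culture was called for none of the 7 members tested, where 0.476% of 21443 genes were called. For Dlk1 it was 1.14 (SE 1.03, adjusted p = 0.758).

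Between the control libraries, the transplanted HSCs had less of most members than the cultured ones, by the largest factors for Dlk1, Meg3, Rian and Peg3. Of 7 members tested 6 were called, all lower after transplantation, where 25.3% of 21443 genes tested were called and 11.4% were called lower. Rian and Peg3 passed the filter on low counts only through the cultured libraries, so their calls add nothing to that count. Dlk1 had 31.3 and 24.8 CPM after culture and 0.0475 and 0.372 CPM after transplantation (log2 fold change -7.23, SE 0.70, edgeR adjusted p = 4.52e-05), a ratio of 141 (counting interval 86.5 to 247). Meg3 had 5.43 and 6.06 CPM against 0.190 and 0 CPM (log2 fold change -5.94, SE 0.54, adjusted p = 1.09e-06; ratio 57.0, counting interval 28.7 to 133). Rian had 1.64 and 2.25 CPM against 0.0475 and 0 CPM (log2 fold change -6.24, adjusted p = 4.91e-05; ratio 76.7, counting interval 20.9 to 639).

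Peg3 had no count in either transplanted control library, which makes it at least 92.3-fold lower than in culture (limit of 3 counts over the group). Of all 6 transplanted libraries, 1 held Peg3 above 2 counts, an shRNA2 library with 36. H19 and Mirg were at 0 in all 6. The abundant members changed less: Grb10 had 128 and 133 CPM after transplantation against 232 and 221 CPM in culture (log2 fold change -0.93). Ndn had 18.7 and 10.2 CPM against 34.2 and 35.0 CPM (log2 fold change -1.39, adjusted p = 0.0259). The Ndn call was lost without either cultured control library (adjusted p = 0.0904 without replicate 1 and 0.0929 without replicate 2) and without transplanted control replicate 2 (log2 fold change -1.03, adjusted p = 0.134). Old HSCs taken straight from the marrow had 11.4 to 47.6 CPM of Dlk1 and 34.2 to 63.0 CPM of Meg3, but they were made with another kit, and sorted with another gate, and these, the extraction and the growth in the recipient cannot be told apart.

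Of 18 tested genes of IGF signaling, 5 were higher and 4 lower after transplantation. Igf2bp2 was lower (2.62 ± 0.849 against 6.40 ± 0.209 CPM, log2 fold change -1.42), and Lin28b had no count in the transplanted controls. Igf2r, which is imprinted in the opposite sense to Igf2, was higher after transplantation (38.6 ± 5.73 against 9.95 ± 0.951 CPM, n = 2 each, log2 fold change 1.82), as was Igf1 (1.44 ± 0.151 against 0.134 ± 0.190 CPM, log2 fold change 3.32). Of 29 tested imprinted genes elsewhere, 9 were higher and 1 was lower, and of 23 tested in the same clusters 3 were higher and 3 lower, where 25.3% of all genes tested were called. Of 13 tested imprint regulators none was higher and 5 were lower, among them Uhrf1 and Dnmt1, which copy DNA methylation at replication. Markers of other cells moved too: the erythroid and megakaryocyte sum was 921 to 940 CPM in cultured and 260 to 276 CPM in transplanted controls, with 4 of 11 lower and 1 higher, and the granulocyte and monocyte sum 257 to 258 CPM against 323 to 550 CPM, with 2 of 11 higher and 1 lower. The stromal and endothelial sum was 45.6 to 50.4 CPM against 58.4 to 58.5 CPM, with 3 of 9 tested higher and 1 lower. The lymphoid sum was 17.4 to 18.9 CPM against 30.3 to 33.0 CPM, with 2 of 5 tested higher. Their part in the members' results was not tested.

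Across the young progenitors Grb10 was the one member with a level in every library. It had 27.1 and 19.8 CPM in CMP, 25.2 and 28.6 CPM in GMP and 92.8 and 97.3 CPM in MEP. MEP were above both other types without overlap, with a log2 fold change of 1.72 against GMP (SE 0.13, edgeR adjusted p = 3.81e-07) and 2.13 against CMP (SE 0.13, adjusted p = 6.25e-08), each called in 11 of 11 alternatives. CMP and GMP overlapped in Grb10 (log2 fold change GMP against CMP 0.41, adjusted p = 0.0345, under the fold required). In all, 3 members were tested in each of these comparisons: 3 were called between MEP and GMP, 2 between MEP and CMP and 1 between GMP and CMP, where 43.7%, 46.7% and 16.7% of 18234 genes were called. Plagl1 passed the filter on low counts only through GMP, and Dlk1 only through CMP and GMP libraries. Their calls had to be for higher levels there, so the count of members carries no weight beyond Grb10.

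Plagl1 was found in GMP, with 18 and 18 counts (0.507 and 0.543 CPM), while CMP had 2 and 4 counts and both MEP libraries were at 0. It was at least 12.4-fold lower in MEP than in GMP (limit of 3 counts over the group). With no filter on low counts the edgeR adjusted p was 0.000142 for MEP against GMP and 0.0535 for GMP against CMP. The call between GMP and CMP was lost, among others, without CMP replicate 2 and without either GMP library. Dlk1 had 14 and 10 counts in CMP, 12 and 0 in GMP and 0 in both MEP libraries. It was at least 7.85-fold lower in MEP than in CMP (edgeR adjusted p with no filter 0.0023) and at least 4.13-fold lower than in GMP (0.0129). The call against CMP was kept in 7 of 11 alternatives and lost without CMP replicate 1 and without either MEP library. The call against GMP was kept in 3 of 11 and lost, among others, with DESeq2 and with the replicate block (adjusted p up to 1). Without GMP replicate 1 the latter comparison had no counts on either side. With counts divided by 2 neither Plagl1 nor Dlk1 passed the filter on low counts.

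H19, Igf2, Rian and Mirg had no count in any of the 6 progenitor libraries, and Meg3, Ndn and Peg3 had 8, 20 and 2 counts over all of them. Against the mean of the 3 progenitor types, all 10 members were higher in young HSCs, where 74.0% of 25716 genes tested were called and 52.1% were called higher. Within the progenitors only Dlk1, Grb10 and Plagl1 passed the filter on low counts. The other 7 passed it only through the HSC libraries, so they had to be higher and their calls carry no weight. Summed over libraries, H19 was at least 115-fold, Igf2 at least 76.7-fold, Rian at least 671-fold and Mirg at least 92.3-fold higher in HSCs (limit of 3 counts over the 6 libraries). Meg3 had a ratio of 1580 (counting interval 799 to 3650), Ndn 858 (555 to 1400), Peg3 489 (135 to 4050), Dlk1 90.9 (65.3 to 130), Plagl1 13 (9.30 to 18.5) and Grb10 4.50 (4.39 to 4.61). The pooled ratios hide differences between the types: Grb10 had 9.29 against CMP, 8.14 against GMP and 2.30 against MEP. In the same order Plagl1 had 30.9, 4.91 and at least 60.7, and Dlk1 46.5, 88.4 and at least 365. The HSC libraries are labelled as total RNA and the progenitor libraries as polyA RNA, so cell type and library type cannot be told apart. With a background of this size the calls alone say little about the members.

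The genes most like each member were taken by Pearson's r of log2 CPM over all 30 libraries, which share kits and cell types, among 29260 genes. Meg3 and Rian were among each other's nearest, with r = 0.975 (0.849 within the 12 young and old HSC libraries), and Gm26906, the antisense model inside Meg3, had r = 0.965 with Meg3 and 0.979 with Rian. Nearest to Ndn was Tnks1bp1 (0.987), but within young and old HSCs this pair had r = -0.229. Nearest to H19 was Gm49743 (0.949, and 0.844 within young and old HSCs). For Dlk1 it was Ubqln2 (0.939 and 0.458), for Grb10 Cd248 (0.938 and 0.639), for Peg3 Ism2 (0.956 and 0.171). For Igf2 it was Gm26684 (0.979 and 0.424), for Mirg Tmem132c (0.968 and 0.801) and for Plagl1 Gm49228 (0.860 and 0.728).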

How the data were processed

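RNA-seq, ATAC-seq and ChIP-seq files of mouse HSCs and progenitors were used as deposited. The RNA values are raw counts per gene that the authors obtained by trimming with cutadapt, alignment to mm10 with STAR and counting with featureCounts. Strand, multimapping and read-pair settings of the counting: not given in the sources used here. ATAC reads were aligned with BWA, and the authors deposited counts per consensus region. For ChIP-seq the deposited signal per peak was scaled by the authors to 10 M reads, and H3K36me3 came as domain coordinates. Columns of the authors' own fold changes were not used, nor were 8 per-sample columns that could not be assigned to a sample.

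Counts were tested with edgeR 4.0.16 in R 4.3.3 (TMM, filterByExpr, robust quasi-likelihood test, Benjamini-Hochberg over all genes), with a fold above 1.5 and adjusted p below 0.05. ATAC regions needed over 1.5 CPM in at least 4 libraries and adjusted p below 0.01, and lay within 10 kb of a gene. H3K27ac was compared by ratios, with limma 3.58.1 as an alternative. DESeq2 1.42.0, other size factors, no filter, other thresholds, each library left out and the replicate block were alternatives. Replicate numbers did not pair the libraries (correlation of same-numbered deviations -0.226 to 0.054). No libraries were duplicates. The scripts were tested on simulated data. Members and gene lists were chosen with earlier results of these data known. Every member was to be named, with at most 4 called list genes of largest change per comparison. Gene places came from GENCODE and sequences from RefSeq GRCm38.p6. Depth is given with the results and limits genes under about 10 counts.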

Additional observations from a re-analysis of the deposited data

Results flagged for a closer look

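Of 20 groups of RNA values and 64 groups of ATAC values for the members, 6 held a library whose gap to its nearest neighbor took an unusually large share of the group's range (Dixon's ratio), and chance alone gives such a gap in about 1 in 20 groups. In RNA, old replicate 3 was low for Ndn (82.8 CPM), old replicate 4 was high for Peg3 (9.43 CPM) and old replicate 8 was high for Plagl1 (1.49 CPM). In ATAC-seq, young replicate 4 was low at a Grb10 region (5.22 CPM, chr11:11942582-11943203), old replicate 6 was high at the H19 upstream region with matches 1 and 2 (2.62 CPM) and old replicate 7 was low at a region over a RefSeq promoter of Plagl1 (6.36 CPM, chr10:13090467-13091469).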

How the results depend on the processing

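Over all settings, counts of called members stayed within 1.5 times of the reported count in 138 cases, were lower in 24 and higher in 5. Single values kept direction and side of the threshold in 664 cases, lost it in 45 and gained it in 1, and in 14 the sign was not kept. With adjusted p alone, 5 members passed for age, 4 for cultured knockdown and 2 for GMP against CMP. A fold above 2 left 1 member in cultured knockdown and 0 ATAC regions. Leaving out single libraries gave 0 to 2 members for cultured knockdown, 1 to 3 for MEP against CMP, 0 to 1 for GMP against CMP and 2 to 6 ATAC regions. Counts divided by 2, chosen after seeing the data, left 1 (MEP against GMP), 1 (MEP against CMP) and 0 (GMP against CMP), and for GMP against CMP DESeq2 and no filter also left 0. ATAC regions called were 3 in gene bodies, 21 within 50 kb and 10 with no CPM minimum. H3K27ac calls fell to 0 with 0.5 added to the signal and with limma. The cause was not tested, except that fewer samples or genes enter some settings by construction.

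With the replicate block, whose numbers do not pair the libraries, Igf2 lost its age call (log2 fold change -0.84, adjusted p = 0.182), GMP against CMP had 0 members and H3K27ac by limma 0. For ATAC-seq no paired analysis was possible because young and old libraries share no replicate number.

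Some values changed sign when a library was left out, the range being -0.19 to 0.20 for Peg3 with age, -0.46 to 2.43 (Dlk1) and -0.08 to 0.80 (Ndn) for knockdown after transplantation, -1.93 to 3.16 (Dlk1) and -0.45 to 0.42 (Ndn) for its difference from culture and -6.48 to 0.24 for Dlk1 in GMP against CMP. Dlk1 in MEP against GMP ranged from -6.74 to 0, with 0 where GMP replicate 1 was left out and neither side had a count. Peg3 with age was below 0 without young replicate 2 or 4 or old replicate 1 or 4. With shRNA1 alone, Grb10 after transplantation was at 0.05. Depth limits H19, Igf2, Mirg and Plagl1 outside fresh HSCs.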

Other observations

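The library-to-library values hold a few patterns outside the comparisons. In the transplanted libraries, single libraries carried nearly all counts of a member: 36 of 38 Peg3 counts came from shRNA2 replicate 1, and all 28 Plagl1 counts of the 4 knockdown libraries came from shRNA2 replicate 2. Meg3 was at 14 and 13 counts in the shRNA2 libraries and at 1 and 0 in the shRNA1 libraries. Each transplanted library came from pooled recipients that had received a limited number of cells, and a difference between libraries was not tested.

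Airn, the noncoding RNA antisense to Igf2r, was at 0.104 ± 0.0807 CPM in cultured and 2.47 ± 0.741 CPM in transplanted control HSCs (n = 2 each), beside the higher Igf2r there. Lin28b had 0.483 and 0.725 CPM in cultured controls and no count in any of the 6 transplanted libraries. Both genes were singled out after their values were seen.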
